A study of Mus musculus with 98 samples.

Results

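The comparison described here is that of STAT5-deficient with wild-type mouse CD4+ T cells after culture under Th1 conditions. It rests on 4 RNA-seq libraries, 2 per genotype, chosen by their labels from the 98 samples of the series. The deficient cells (S5KO below) came from Stat5a/b flox/flox Cd4-Cre+/- mice and the reference cells (WT) from wild-type mice, all C57BL/6. Naive CD4+CD44-CD25- T cells were sorted from spleen and peripheral lymph nodes, which were pooled, and stimulated for 3 days on plate-bound anti-CD3 with anti-CD28 in solution. The Th1 cultures of both genotypes received IL-12 and anti-IL-4. The same genotypes, at 2 libraries each, were grown in 4 other cultures that serve as a comparison: Th0, with no added cytokine or blocking antibody, Th2, with IL-4 and anti-IFN-gamma, Th17, with TGF-beta, IL-6 and antibodies to IL-4 and IFN-gamma, and iTreg, with TGF-beta and the same antibodies. The Cd4 promoter drives Cre already in thymocytes, so the genes were lost before the cells were sorted. The labels give no age.

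STAT5A and STAT5B are transcription factors that the IL-2 receptor and the other receptors with the common gamma chain activate through JAK1 and JAK3. In Th1 differentiation IL-12 acts through STAT4, and interferon-gamma (IFN-gamma) through its own receptor, to raise the factor T-bet, encoded by Tbx21. T-bet and STAT4 promote Ifng, and STAT5 is known to support Th1 differentiation by raising the IL-12 receptor chain Il12rb2 and T-bet. The IFN-gamma that the cells release acts back on them and induces guanylate-binding proteins and immunity-related GTPases.

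The libraries held 15.5 to 16.9 M counts in genes. Levels are given as CPM, the count of a gene relative to the scaled total of its library, and are compared between libraries of 1 gene, not between genes. Stat5a stood at 2.14 and 4.04 CPM in the S5KO libraries, against 325 and 319 CPM in WT. Stat5b stood at 1.33 and 3.22 CPM in S5KO, against 355 and 313 CPM in WT. Both targeted genes thus followed the genotype labels in all 4 libraries. The replicate 2 libraries of both genotypes carry Th2 as their cell type label, although their titles name Th1 and their treatment is that of the Th1 cultures. In those 2 libraries Ifng was at 373 CPM in S5KO and 175 CPM in WT, and in the 4 Th2 libraries it reached at most 1.64 CPM. Gata3, the Th2 factor, was at 10.0 CPM in S5KO replicate 2 and 9.04 CPM in WT replicate 2, and at 238 to 322 CPM in the Th2 libraries. The markers thus followed the title and the treatment, and the libraries were kept as Th1.

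The replicate numbers differ in sex, and the labels do not say whether they mark batches. All 10 replicate 1 libraries of the 5 cultures hold Y-linked transcripts and all 10 replicate 2 libraries hold Xist, so that the numbers mark male and female cells. In Th1 culture 14964 genes had a count in S5KO replicate 1 and 20378 in S5KO replicate 2, against 15085 and 20783 in WT. The first principal component of the 4 libraries (56.0% of variance) separated the replicate numbers, and the second (36.4%) the genotypes. Each replicate number holds 1 library per genotype in Th1 culture and gives no test of its own. S5KO minus WT differences within each replicate number are therefore given for the main genes. Whether the replicates are otherwise separate cultures is not stated. In the main test the replicates of each group are a male and a female library. Its p-values thus weigh the genotypes against a spread, over all 20 libraries, that includes the difference between replicate numbers.

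Markers of T cells were not called: 0 of 9 tested members were called with edgeR (0 at an unadjusted p below 0.05, 0 with DESeq2), and their summed level was 3540 and 3988 CPM in S5KO, against 4137 and 3921 CPM in WT. Markers of other cells moved in part. The 12 tested myeloid and antigen-presenting cell markers summed to 291 and 334 CPM in S5KO, against 135 and 117 CPM in WT, a difference carried by Cd74, the invariant chain of class II molecules (148 and 203 CPM in S5KO, against 40.9 and 37.7 CPM in WT) and Mpeg1 (36.9 and 30.6 CPM in S5KO, against 1.01 and 1.68 CPM in WT). In the same list Cd68 ran the other way (1.67 and 2.65 CPM in S5KO, against 14.3 and 11.3 CPM in WT). The defining myeloid genes Itgam, Csf1r and Emr1 were at no more than 1.20 CPM in S5KO and 2.12 CPM in WT, with 0 in S5KO replicate 1. The CD8, NK and gamma-delta list had 5 tested members that summed to 46.3 and 35.7 CPM in S5KO, against 13.3 and 12.6 CPM in WT. Of these the NK receptor genes Klrk1 (log2 fold change 3.54) and Klrd1 (2.43) were higher in S5KO, while Cd8a, at 1.47 and 2.71 CPM in S5KO and 0.876 and 2.31 CPM in WT, was not called. The 7 tested B cell markers summed to 45.1 and 48.6 CPM in S5KO, against 24.5 and 27.7 CPM in WT, nearly all of it Ebf1, which was not called. Of these 7, 0 were called higher and 1 lower, the B cell receptor component Cd79b (0 and 0.126 CPM in S5KO, against 0.876 and 0.872 CPM in WT; -3.62 ± 1.08, adjusted p = 0.041), and that call was lost without S5KO replicate 1 (0.25), WT replicate 1 (0.14) or WT replicate 2 (0.086). Without WT replicate 1 the calls of Mpeg1 and Klrd1 were lost (adjusted p = 0.094 and 0.097). In bulk RNA, more cells of a type and more RNA per cell cannot be told apart, and the part of these genes in the results below was not tested. The ribosomal transcript Rn45s was at 2333 and 1905 CPM in S5KO, against 3980 and 2555 CPM in WT, and was not called (adjusted p = 0.26).

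Loss of STAT5 changed 1796 of 15299 genes tested in Th1 culture, 11.7% of them, at an adjusted p below 0.05 (edgeR quasi-likelihood test, Benjamini-Hochberg adjustment, spread estimated over all 20 libraries of the 5 cultures). Of these, 952 (6.22%) were higher and 844 (5.52%) lower in S5KO, and 523 and 557 changed by 2-fold or more. In all 1796 the S5KO libraries lay outside the range of the WT libraries, so each went the same way within both replicate numbers, but 49% of all genes tested showed such separation. The median log2 fold change over all genes tested was 0.01. With a block for the replicate number within each culture 3240 genes were called. Without S5KO replicate 1, 687 genes were called, without WT replicate 1 488, and without WT replicate 2 1103 (436 higher and 667 lower). Without S5KO replicate 2 there were 1299, of which 915 were higher and 384 lower.

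Most factor genes of the Th1 program rose without STAT5. Of 10 tested, 6 were called higher and 0 lower, beside 6.22% of all genes higher, with a median log2 fold change of 0.94. Tbx21 stood at 273 and 290 CPM in S5KO, against 74.9 and 67.9 CPM in WT. The groups lay far apart (log2 fold change 1.98 ± 0.41, standard error here and below, adjusted p = 0.0056), with differences of 1.86 and 2.09 within replicates 1 and 2. Outside Th1 culture Tbx21 was above 2 CPM only in Th17 culture, with 41.4 and 25.9 CPM in S5KO and 12 and 3.09 CPM in WT. Id2, an inhibitor of E proteins that favours effector cells, was at 138 and 126 CPM in S5KO, against 36.6 and 42.4 CPM in WT (1.74 ± 0.24, adjusted p = 0.00036). Irf1, a factor that IFN-gamma induces, was at 326 and 309 CPM in S5KO, against 155 and 130 CPM in WT (1.15 ± 0.18, adjusted p = 0.00084). Stat4, the transducer of IL-12 signals, was at 233 and 223 CPM in S5KO, against 109 and 93.5 CPM in WT (1.17 ± 0.23). The genotypes did not overlap in any of these, as in all genes called. Twist1, a T-bet-dependent regulator of Th1 cells, was called at low level (9.34 and 15.8 CPM in S5KO, against 1.82 and 2.43 CPM in WT; 2.56 ± 0.56). Runx3 (0.38), Hlx (0.45), Bhlhe40 (0.73) and Eomes (-0.13) did not pass the test. Without WT replicate 1 the calls of Tbx21 (adjusted p = 0.063) and Twist1 (0.12) were lost, and without WT replicate 2 that of Stat4 (0.053).

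Ifng, the signature cytokine, also rose. It stood at 605 and 373 CPM in S5KO, against 117 and 175 CPM in WT, and at no more than 1.96 CPM in any library of the other cultures. Both S5KO libraries lay above both WT libraries (1.74 ± 0.49, adjusted p = 0.032), with differences of 2.37 and 1.09 within replicates 1 and 2. The call was lost without S5KO replicate 1 (adjusted p = 0.22), WT replicate 1 (0.29) or WT replicate 2 (0.073), and the call was not made by DESeq2 (0.19). Among 17 tested Th1 effector genes 4 were higher and 2 lower, beside 6.22% and 5.52% of all genes tested. The other 3 higher ones were the chemokine receptors Cxcr3 (21.0 and 14.8 CPM in S5KO, against 7.55 and 5.42 CPM in WT; 1.46 ± 0.37) and Cxcr6 (1.83 ± 0.52) and the chemokine Ccl3 (1.64 ± 0.51), with Cxcr6 at no more than 2.0 CPM in the Th1 libraries. Lta, which encodes lymphotoxin-alpha, fell to 36.4 and 37.8 CPM in S5KO, against 287 and 295 CPM in WT (-2.97 ± 0.25, adjusted p = 6.7e-06). The difference was -2.98 and -2.96 within replicates 1 and 2. Fasl, the death ligand, was at 7.21 and 9.34 CPM in S5KO, against 14.1 and 17.3 CPM in WT (-0.92 ± 0.23). Tnf, the neighbour of Lta on the chromosome, did not pass (22.8 and 14.1 CPM in S5KO, against 28 and 29.7 CPM in WT; adjusted p = 0.26). The chemokines Ccl4 and Ccl5 and the other members were not called either. Of the 4 genes called higher, 0 were called without S5KO replicate 1 and 0 without WT replicate 1, and the list then held 1 and 2 lower calls. Fasl lost its call without S5KO replicate 1 (adjusted p = 0.16) and without WT replicate 2 (0.11).

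**Figure D1:**
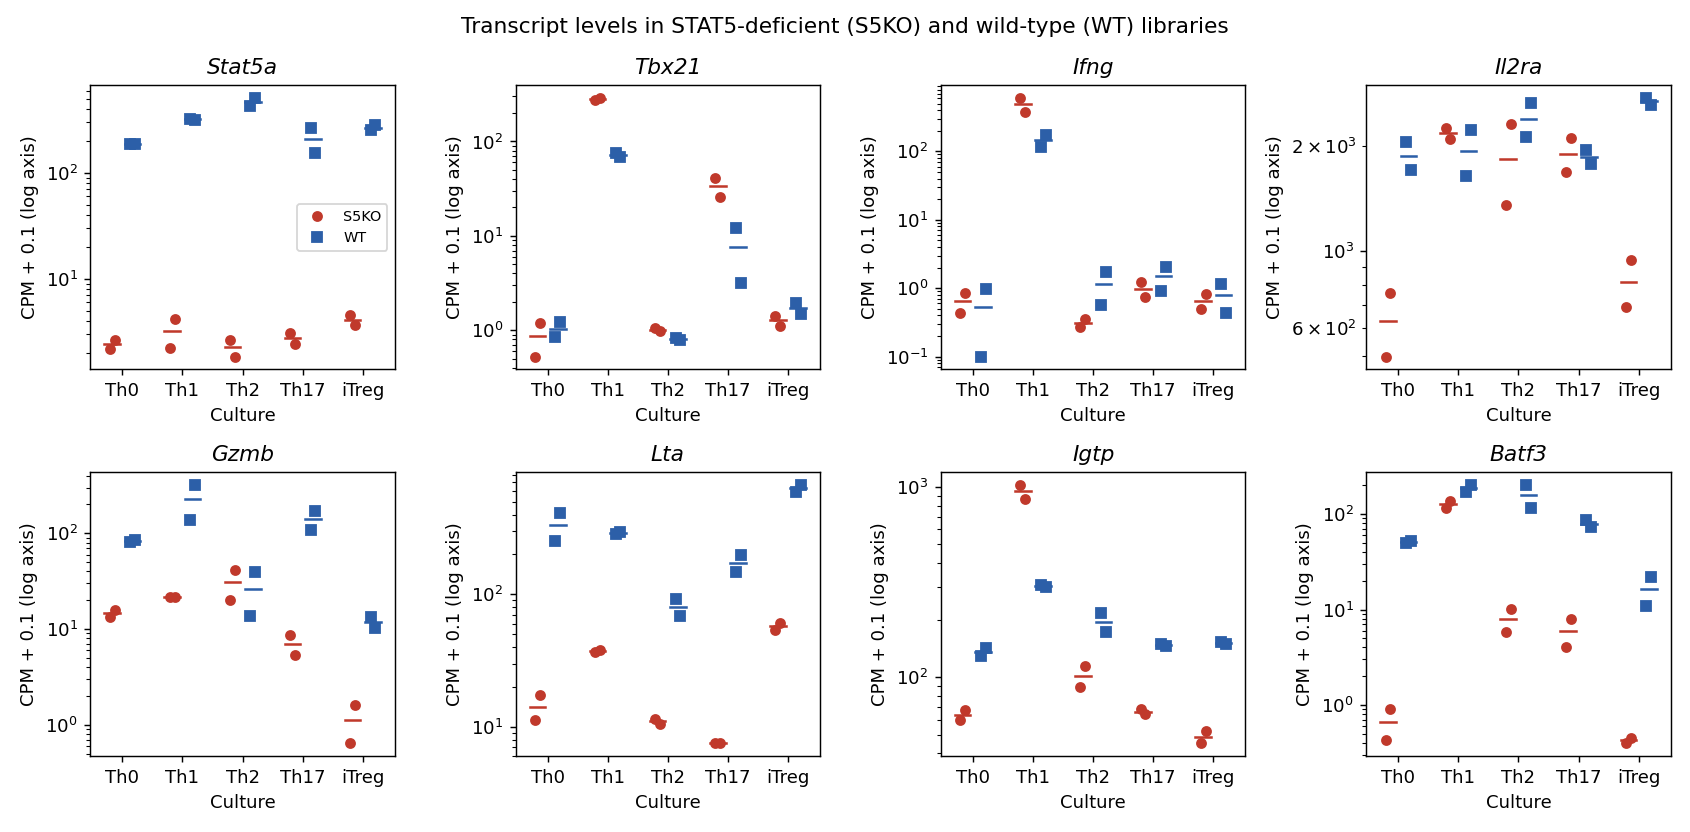
Scaled levels (CPM + 0.1, log axis) of 8 genes in the 20 libraries of the 5 cultures, with S5KO as red circles and WT as blue squares, and a bar at each mean of 2 libraries. Tbx21 and Ifng are highest in S5KO Th1 cells, Il2ra of the genotypes overlaps in Th1 but not in Th0, and Igtp is higher in S5KO only in Th1 culture.

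Of 9 tested receptors and kinases of the Th1 cytokines, 1 was called higher and 1 lower, beside 6.22% and 5.52% of all genes, 2 and 2 were called with the replicate number as a block, and 5 and 2 with that block within each culture. Il18rap, the accessory chain of the IL-18 receptor, was higher (50.3 and 22.1 CPM in S5KO, against 4.58 and 4.86 CPM in WT; 2.94 ± 0.38, adjusted p = 0.00021), and Ifngr2, the signalling chain of the IFN-gamma receptor, was lower (19.5 and 14.9 CPM in S5KO, against 32.2 and 25.8 CPM in WT; -0.75 ± 0.18). Il12rb2, the IL-12-specific receptor chain, stood at 686 and 719 CPM in S5KO, against 302 and 527 CPM in WT, and did not pass (0.76 ± 0.49, adjusted p = 0.37), but did with the block within cultures (0.0081). In Th0 culture its S5KO minus WT difference was -3.47, and the difference between the cultures was 4.23 (adjusted p = 0.0043). Il12rb1, Il18r1, Ifngr1, Jak2, Tyk2 and Il27ra were not called. With the block within cultures Il12rb1 (0.026), Il18r1 (0.0064) and Ifngr1 (0.0091) were called higher and Il27ra (0.021) lower. Ifngr2 lost its call without S5KO replicate 2 (adjusted p = 0.15) or WT replicate 1 (0.11).

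Most of the GTPases that IFN-gamma induces rose. Of 16 tested, 14 were higher in S5KO and 0 lower, beside 6.22% of all genes higher, with a median log2 fold change of 1.92 and single values between 0.81 and 4.05. Igtp (IRGM3) stood at 1031 and 870 CPM in S5KO, against 308 and 298 CPM in WT (1.65 ± 0.17, adjusted p = 3.0e-05). Irgm1, a regulator of the other immunity-related GTPases, was at 301 and 265 CPM in S5KO, against 40.3 and 40.3 CPM in WT (2.81 ± 0.19). The spread between replicates was small beside these differences. Tgtp2 was at 95.1 and 77.4 CPM in S5KO, against 5.26 and 5.11 CPM in WT (4.05 ± 0.26, adjusted p = 2.3e-07). Iigp1, which acts at the vacuole of intracellular parasites, was at 377 and 236 CPM in S5KO, against 25 and 23.1 CPM in WT (3.67 ± 0.45). Irgm2 (2.36 ± 0.20) and Ifi47 (2.39 ± 0.20) followed. Of the guanylate-binding proteins, which coat vacuoles and cytosolic bacteria, Gbp2 reached 1889 and 1563 CPM in S5KO, against 459 and 511 CPM in WT (1.83 ± 0.31), and Gbp10 36.9 and 34.5 CPM in S5KO, against 2.83 and 7.04 CPM in WT (2.85 ± 0.51). Gbp8 and Gbp11 were the 2 members not called (0.81 and 0.95). Without S5KO replicates 1 and 2 and WT replicates 1 and 2, in that order, 12, 13, 11 and 13 members were called, and Gbp10 was lost without WT replicate 1 (adjusted p = 0.052). Tgtp2 has a close copy, Tgtp1, and several Gbp genes are alike, so that their single values are uncertain. The myeloid and antigen-presenting marker Cd74 moved the same way (2.16 ± 0.35), and its part was not tested.

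Promoters of these GTPases are shown because a pair of interferon-response motifs stands near the start of several of them, with Lta, which fell, for comparison. RefSeq promoters (GRCm38.p6, 250 bases before to 50 after the start) were found for 9 of the 16. Capitals mark TTCNNNGAA, the letters that STAT dimers are known to bind, and GAAA followed, after any 2 bases, by GAAA, searched on either strand, letters of interferon regulatory factor sites. The first motif reads the same on both strands. The first stands in 8.30% and the second in 3.44% of all 32851 promoters of this length, and 0.454% hold both. In the 9 GTPase promoters, 5 hold the first, 8 the second and 5 both. The GTPase promoters printed are among those with both. Irgm1, which also rose, holds 0 copies of the first and 2 of the second. Of 14 promoters of the interferon-stimulated genes described below, 3 hold the first, 8 the second and 1 both. For 15 promoters of the IL-2-STAT5 targets described below these counts are 5, 0 and 0. Tgtp2 is at chr11:49064163-49064462 on the minus strand, Irgm2 at chr11:58214727-58215026 on the plus strand, Igtp at chr11:58199306-58199605 on the plus strand and Lta at chr17:35205302-35205601 on the minus strand.
Tgtp2: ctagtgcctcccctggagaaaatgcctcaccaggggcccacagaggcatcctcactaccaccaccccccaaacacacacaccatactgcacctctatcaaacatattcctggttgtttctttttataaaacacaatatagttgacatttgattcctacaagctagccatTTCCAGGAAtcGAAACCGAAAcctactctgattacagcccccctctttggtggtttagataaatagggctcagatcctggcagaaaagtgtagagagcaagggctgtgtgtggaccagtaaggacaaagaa
Irgm2: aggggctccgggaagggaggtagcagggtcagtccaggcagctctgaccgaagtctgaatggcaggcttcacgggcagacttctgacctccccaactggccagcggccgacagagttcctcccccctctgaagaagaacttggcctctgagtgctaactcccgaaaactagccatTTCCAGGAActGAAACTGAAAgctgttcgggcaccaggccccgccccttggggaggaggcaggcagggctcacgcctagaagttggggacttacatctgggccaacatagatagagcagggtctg
Igtp: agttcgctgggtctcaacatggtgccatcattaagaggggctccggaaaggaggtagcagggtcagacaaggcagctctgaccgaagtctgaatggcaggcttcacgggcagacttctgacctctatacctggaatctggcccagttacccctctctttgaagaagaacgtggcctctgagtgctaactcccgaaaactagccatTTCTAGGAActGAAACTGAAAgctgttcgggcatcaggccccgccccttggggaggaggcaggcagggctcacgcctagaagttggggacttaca
Lta: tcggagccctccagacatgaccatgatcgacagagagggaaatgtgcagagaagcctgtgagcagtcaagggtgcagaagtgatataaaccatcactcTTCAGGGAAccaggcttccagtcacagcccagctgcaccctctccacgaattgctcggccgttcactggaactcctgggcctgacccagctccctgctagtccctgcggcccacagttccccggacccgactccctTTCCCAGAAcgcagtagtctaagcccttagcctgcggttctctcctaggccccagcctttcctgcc
In Tgtp2, Irgm2 and Igtp the second motif starts 2 bases after the end of the first, which begins 81, 75 and 45 bases before the start. Irgm2 and Igtp also share a run of 61 bases that lies after the pair. Lta holds 2 copies of TTCNNNGAA, 152 and 16 bases before its start, and none of the second motif. Of 11470 tested genes with a promoter, 54 hold both motifs in 1 promoter, and 18 of the 54 (33.3%) were called higher and 2 lower, with a median log2 fold change of 0.40, beside 6.22% of all genes tested higher. The 6.22% is over all 15299 genes tested, also those without a promoter here. It was not computed for the 11470. The 18 include the 5 GTPases for which the pair was searched, so the 33.3% is a description only. A match describes letters only and does not show that a factor bound there.

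Interferon-stimulated genes, a list more typical of type I interferon, rose in 10 of 18 tested members, beside 6.22% of all genes, with 0 lower and a median of 1.80. Ifi44 was at 95.2 and 90.7 CPM in S5KO, against 1.42 and 4.05 CPM in WT, the largest change of the list (5.07 ± 0.47, adjusted p = 1.4e-05). Ifit1, which binds foreign RNA caps, was at 30.0 and 27.8 CPM in S5KO, against 3.50 and 1.31 CPM in WT (3.59 ± 0.53). Usp18, a brake on the type I interferon receptor, was at 118 and 185 CPM in S5KO, against 33.5 and 34.5 CPM in WT (2.16 ± 0.32). Isg15, a ubiquitin-like modifier, was at 64.2 and 65.0 CPM in S5KO, against 20.8 and 11.8 CPM in WT (1.99 ± 0.34). No library of one genotype reached the range of the other in these, as in all genes called. The RNA sensors Ifih1 (1.77 ± 0.25) and Ddx58 (1.38 ± 0.24), the factor Irf7 (1.84 ± 0.33), and Mx1 (2.90 ± 0.60), Mx2 (1.89 ± 0.39) and Oasl2 (2.84 ± 0.71) were also called, the last 3 at under 17 CPM. Rsad2, Isg20, Ifit2, Ifit3, Oas1a, Oas2, Oas3 and Oasl1 were not called. Without WT replicate 1, 7 members were called, and Mx1 (adjusted p = 0.11) and Oasl2 (0.21) were among those lost. Oasl2 was also lost without S5KO replicate 2 (0.084).

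Both interferon lists differed in the other cultures. In those, STAT5 loss changed 6.49% of all genes in Th0 (3.81% higher and 2.68% lower), 11.5% in Th2 (7.43% and 4.1%), 4.88% in Th17 (2.33% and 2.56%) and 22.6% in iTreg (11.3% each). The GTPases had medians of -0.16, 1.92, -0.51, -0.80 and 1.0 in Th0, Th1, Th2, Th17 and iTreg culture, and the interferon-stimulated genes -0.76, 1.80, -0.18, -1.39 and -2.22. Igtp was at 59.9 and 67.3 CPM in S5KO Th0 cells, against 130 and 143 CPM in WT Th0 cells, the reverse of its order in Th1. The effect of STAT5 loss in Th1 lay above that in Th0 for 12 of the 16 GTPases and 10 of the 18 interferon-stimulated genes, beside 2.52% of all genes, by a test of the difference itself. Against the mean of the other 4 cultures it lay above for 13 and 12, beside 2.91% of all genes. In the other cultures, 3 GTPases were called higher and 5 lower in Th0, 2 and 5 in Th2, and 0 and 6 in Th17. In iTreg 8 of the 16 were higher, with single values up to 4.95, and 3 lower. Interferon-stimulated genes had 0 and 4 in Th0, 4 and 0 in Th2, 0 and 6 in Th17 and 1 and 8 in iTreg. These counts stand beside the shares of all genes given above.

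**Figure D2:**
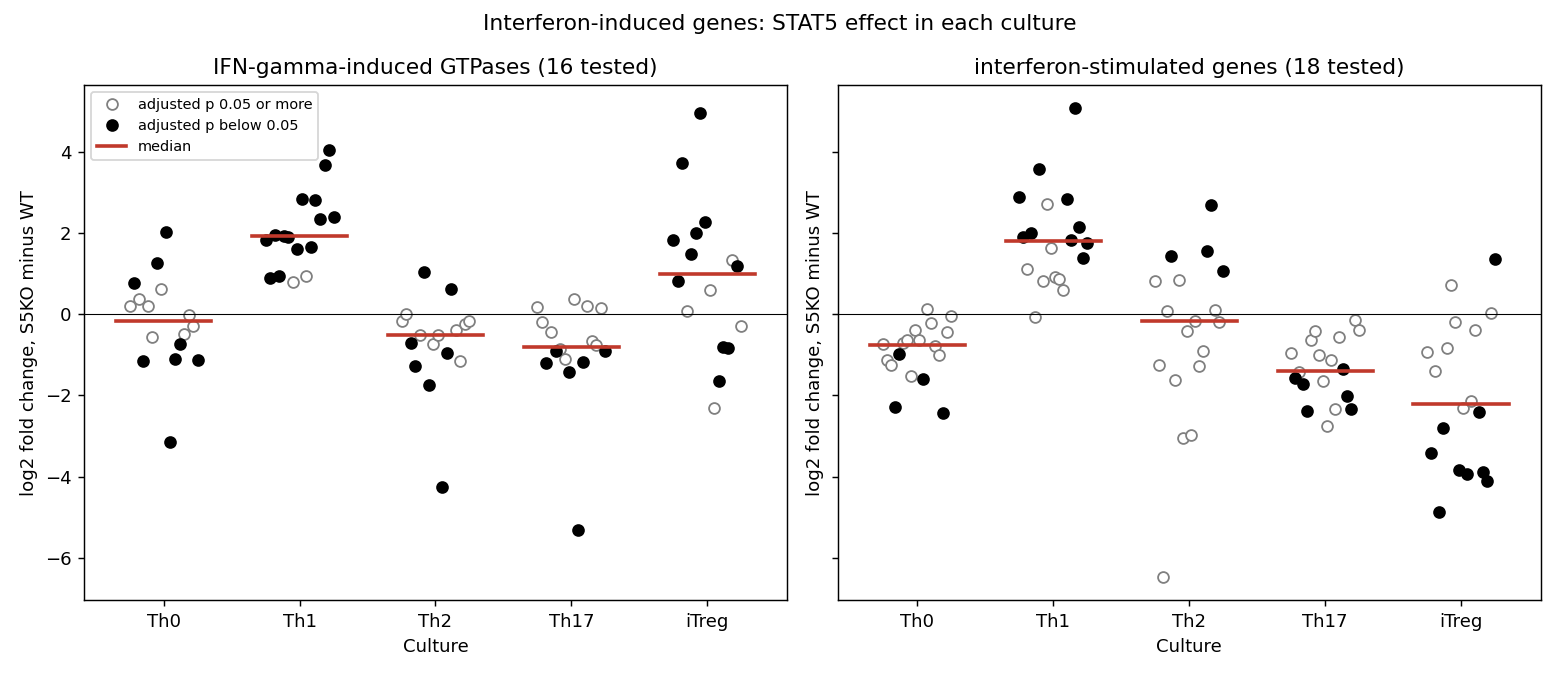
Log2 fold change of each tested member, S5KO minus WT, in the 5 cultures, with filled points at an adjusted p below 0.05 and a red bar at the median. In Th1 culture 14 of 16 GTPases and 10 of 18 interferon-stimulated genes are filled above 0 and 0 below.

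In IL-2 signalling, 1 of 10 receptors and kinases and 1 of 11 feedback genes were called in Th1 culture. Of all genes tested, 11.7% were called. Il2ra, the IL-2 receptor alpha chain (CD25) and a textbook STAT5 target, stood at 2247 and 2094 CPM in S5KO, against 1635 and 2220 CPM in WT. The genotypes overlapped (0.17 ± 0.26, adjusted p = 0.78), with differences of 0.46 and -0.08 within replicates 1 and 2. In Th0 culture it was at 498 and 757 CPM in S5KO, against 2049 and 1700 CPM in WT, and the effect of STAT5 loss differed between the cultures by 1.75 (adjusted p = 0.011). That difference lost its call without WT Th1 replicate 1 or S5KO Th0 replicate 1, with an adjusted p of at most 0.070. Of the 10 common gamma chain receptors and their kinases, only Jak1 was called (433 and 317 CPM in S5KO, against 255 and 237 CPM in WT; 0.61 ± 0.17), and it was lost without S5KO replicate 1 (adjusted p = 0.44), WT replicate 1 (0.14) or WT replicate 2 (0.20). Il2rb (0.47), Il2rg (0.71), Il4ra (0.13), Il7r (0.77), Il9r, Il15ra, Il21r and Jak3 were not. With the replicate number as a block 2 of the 10 were higher and with that block within each culture 4, among them Il2rb (0.044), Il2rg (0.0028) and Il7r (0.011).

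Of 11 tested feedback genes Socs2 alone was called, beside 11.7% of all genes. Socs2 was at 15.4 and 15.8 CPM in S5KO, against 77.2 and 69.4 CPM in WT (-2.23 ± 0.32, adjusted p = 0.00049). Cish, the STAT5-induced SOCS family member, stood at 214 and 253 CPM in S5KO, against 304 and 294 CPM in WT. Its libraries did not overlap, yet the change did not pass (-0.36 ± 0.22, adjusted p = 0.35). Socs1, which restrains IFN-gamma signals, was at 141 and 179 CPM in S5KO and 103 and 114 CPM in WT (0.55 ± 0.34), and Socs3 at 212 and 261 CPM in S5KO and 215 and 250 CPM in WT (0.02 ± 0.43). The kinase genes Pim1 (-0.27), Pim2 (-0.56) and Pim3 (0.23) and Socs4 to Socs7 were not called. With the block within cultures Socs1 (0.047) and Socs4 (0.036) were called higher. For Cish, Socs1, Socs2 and Socs3 the effect in Th1 lay above that in Th0, by 1.57, 3.33, 3.64 and 2.92 (adjusted p = 0.0089, 0.0012, 0.00035 and 0.015). In Th0, 6 of the 11 were lower in S5KO, beside 2.68% of all genes.

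Of 20 genes listed as IL-2-STAT5 targets, 6 fell and 0 rose in Th1, beside 5.52% of all genes lower, with a median of -0.37. The same list had 15 lower in Th0, 10 in Th2, 12 in Th17 and 16 in iTreg culture. Of all genes, 2.68%, 4.1%, 2.56% and 11.3% were lower in these cultures, in that order. Gzmb, the cytotoxic protease granzyme B, fell to 21.8 and 21.7 CPM in S5KO, against 136 and 322 CPM in WT (-3.40 ± 0.53, adjusted p = 0.00086). The WT libraries differed from each other by more than 2-fold, but both lay far above S5KO. Egln3, a prolyl hydroxylase that senses oxygen, was at 148 and 223 CPM in S5KO, against 710 and 878 CPM in WT (-2.10 ± 0.37). Lrrc32, which holds latent TGF-beta on the cell surface, was at 7.21 and 8.08 CPM in S5KO, against 26.8 and 29.6 CPM in WT (-1.88 ± 0.50). Tnfrsf18, the costimulatory receptor GITR, was at 342 and 403 CPM in S5KO, against 705 and 603 CPM in WT (-0.81 ± 0.23). Lta and Socs2, given above, complete the 6. Bcl2, Lif, Osm, Tnfrsf4, Tnfrsf9, Prdm1, Icos, Nfil3 and the others were not called. For 10 of the 20 the effect lay above that in Th0, beside 2.52% of all genes. Lrrc32 (adjusted p = 0.069 to 0.14) and Tnfrsf18 (0.063 to 0.24) lost their calls without any one of the 4 libraries, and a list count of 4 lower was left in each case.

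**Figure D3:**
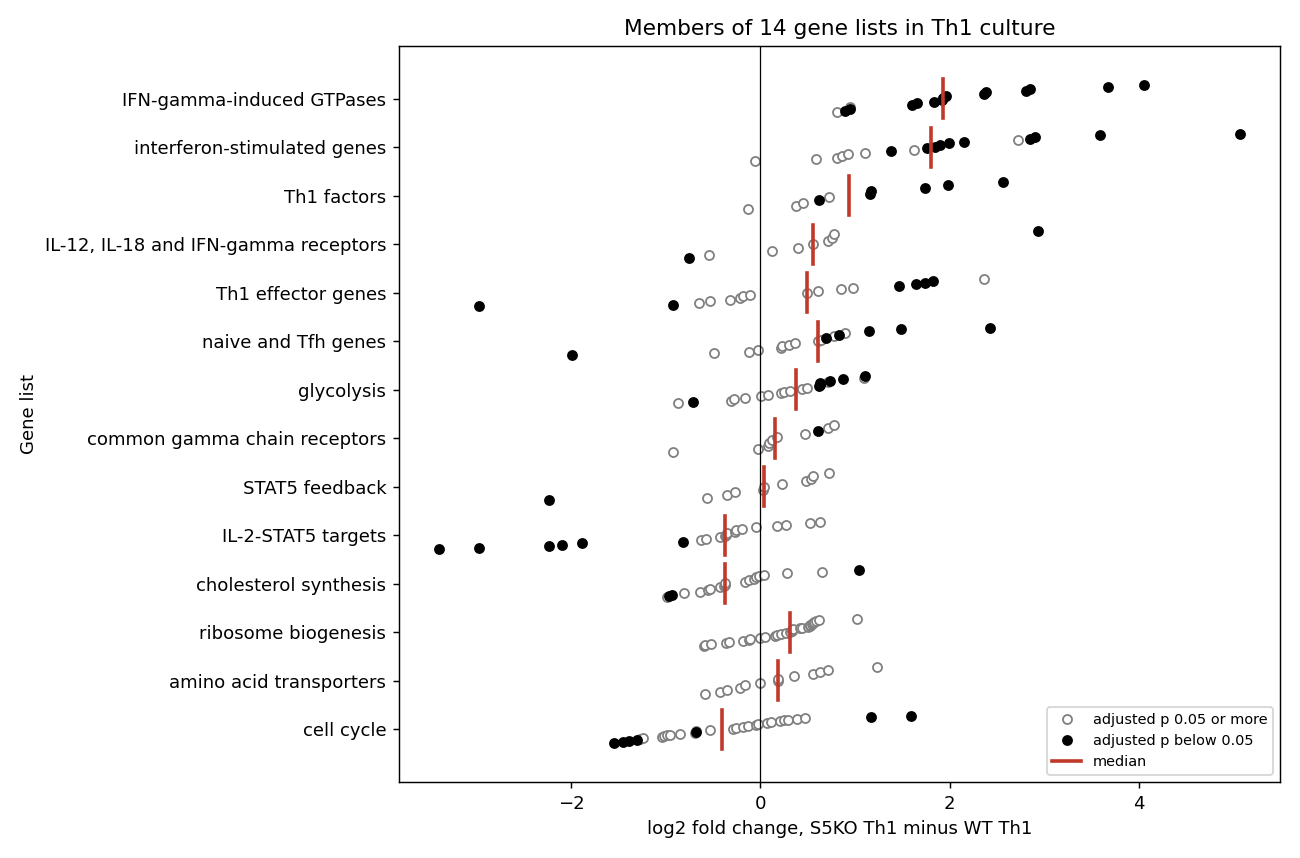
Log2 fold change of every tested member of 14 gene lists, S5KO Th1 minus WT Th1, filled at an adjusted p below 0.05, with the median of each list in red. The medians run between 1.92 for the GTPases and -0.41 for cell cycle genes, and the IL-2-STAT5 targets hold 6 filled points below 0 and 0 above.

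Several of the largest changes lay outside these lists. Serpina3g, a serpin that blocks cathepsins, stood at 92.6 and 116 CPM in S5KO, against 2.97 and 4.24 CPM in WT (4.85 ± 0.42, adjusted p = 7.9e-06). It belongs to a cluster of near copies, so its value is uncertain, though the neighbouring copy Serpina3f, looked at for this reason, was also at 51.0 and 55.9 CPM in S5KO, against 0.607 and 1.31 CPM in WT. Serpinb9, the inhibitor of granzyme B, was at 427 and 350 CPM in S5KO, against 35 and 33.8 CPM in WT (3.50 ± 0.33), while Gzmb itself was lower. Serpine2, a further protease inhibitor, was also higher (3.10 ± 0.37). Cd24a, a surface glycoprotein of immature and activated lymphocytes, was at 324 and 185 CPM in S5KO, against 10.5 and 8.47 CPM in WT (4.74 ± 0.50). Tnfsf4, the ligand of OX40, was at 178 and 116 CPM in S5KO, against 11.5 and 12.5 CPM in WT (3.61 ± 0.37). Penk, which encodes enkephalin precursors, was at 186 and 92.5 CPM in S5KO, against 8.56 and 6.29 CPM in WT (4.23 ± 0.52). Upp1, a uridine phosphorylase, was at 87.8 and 89.6 CPM in S5KO, against 7.75 and 5.67 CPM in WT (3.73 ± 0.53). Csf1, the macrophage growth factor (2.64 ± 0.56), the ETS factor Etv5 (2.59 ± 0.26), Cldnd1 (2.57 ± 0.25), the receptor Lgr4 (2.53 ± 0.42) and the interferon-induced Xaf1 (2.51 ± 0.29) complete the 15 with the largest rise among genes with a mean of at least 4 in log2 CPM and libraries that do not overlap. Csf1 lost its call without WT replicate 1 (adjusted p = 0.12).

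Among genes past the same level, the largest fall beside Stat5a and Stat5b was that of Il24, a cytokine of the IL-10 family, at 12.9 and 21.5 CPM in S5KO, against 240 and 360 CPM in WT (-4.13 ± 0.70, adjusted p = 0.0016). Gzmb and Lta, given above, were also among the 15. Izumo1r, the folate receptor FR4 of regulatory and anergic T cells, was at 10.0 and 13 CPM in S5KO, against 106 and 98.3 CPM in WT (-3.15 ± 0.38). Il6ra, the IL-6 receptor chain, was at 8.74 and 11.8 CPM in S5KO, against 41.2 and 40.3 CPM in WT (-1.99 ± 0.26). In each of these the genotypes were separate, as the rule for choosing them requires. The collagen receptor kinase Ddr1 (-2.53 ± 0.49), Tbc1d31 (-2.32 ± 0.25), the mitotic phosphatase Cdc25b (-2.25 ± 0.37), and Prr11 (-2.07 ± 0.33) fell as well, and Ddr1 lost its call without S5KO replicate 1 (adjusted p = 0.051).

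**Figure D4:**
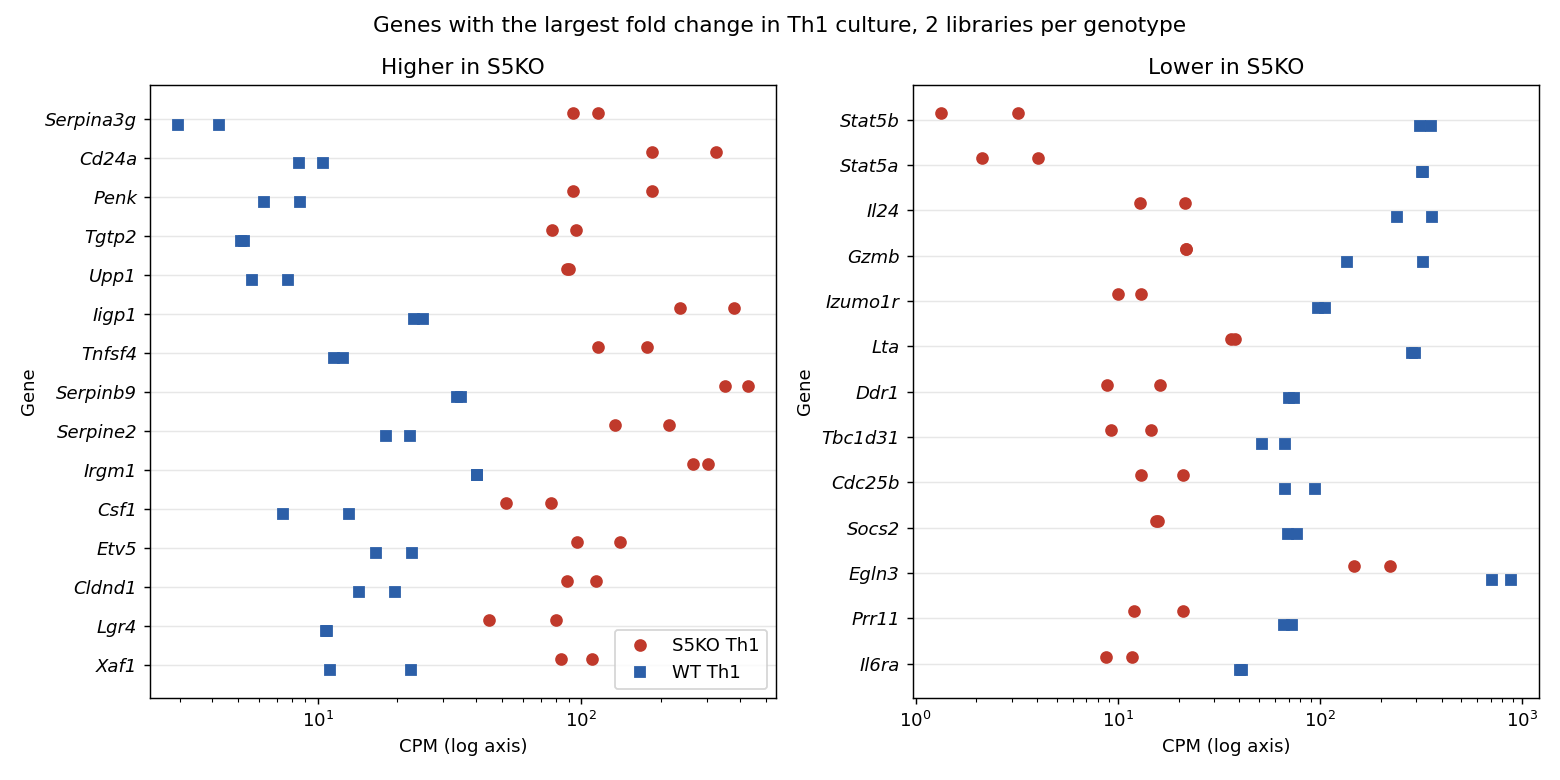
Scaled level (CPM, log axis) in each of the 4 Th1 libraries for the 15 genes with the largest rise and 13 of those with the largest fall among genes with a mean of at least 4 in log2 CPM, S5KO as red circles above WT as blue squares. The groups are separate in every gene, as the rule for choosing them requires, and Gzmb has the widest spread between WT libraries, 136 and 322 CPM.

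Growth and metabolism genes moved less. Of 20 glycolysis genes 6 were higher and 1 lower, beside 6.22% and 5.52% of all genes, with a median of 0.38. Ldha, lactate dehydrogenase, was at 4402 and 3716 CPM in S5KO, against 2584 and 2645 CPM in WT (0.63 ± 0.15, adjusted p = 0.012). Slc16a3, the lactate exporter, was at 310 and 476 CPM in S5KO, against 148 and 218 CPM in WT (1.10 ± 0.34). Hk1 (0.74 ± 0.18), Pfkl (0.87 ± 0.27), Tpi1 (0.63 ± 0.18) and Eno1 (0.62 ± 0.15) were the other higher members and Pfkm (-0.71 ± 0.21) the lower. The glucose transporter Slc2a1 was at 288 and 385 CPM in S5KO, against 170 and 242 CPM in WT, and was not called (0.71 ± 0.34). The same list had 0 higher and 11 lower in Th0, beside 3.81% and 2.68% of all genes. The effect in Th1 lay above that in Th0 for 13 of the 20, beside 2.52% of all genes. These calls depend on single libraries: without S5KO replicate 1, 2 members were called, without S5KO replicate 2 2, without WT replicate 1 0 and without WT replicate 2 1, and the called member was then lower.

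Cholesterol synthesis had 1 of 20 higher, Hsd17b7 (1.04 ± 0.28), and 2 lower, Mvd (-0.96 ± 0.27) and Dhcr7 (-0.93 ± 0.26), beside 6.22% and 5.52% of all genes. With the replicate number as a block 2 were higher and 5 lower. Ribosome biogenesis had 0 of 29 called (8 at an unadjusted p below 0.05) and amino acid transporters 0 of 13 (2 at an unadjusted p below 0.05), but with the block within cultures 8 and 2 were called. Phgdh, the first enzyme of serine synthesis, was at 138 and 110 CPM in S5KO, against 320 and 248 CPM in WT (-1.20 ± 0.22, adjusted p = 0.0025). Of 30 cell cycle genes 2 were higher and 5 lower, beside 6.22% and 5.52% of all genes, with a median of -0.41. Ccnd2, a D-type cyclin, was at 1835 and 1324 CPM in S5KO, against 640 and 763 CPM in WT (1.17 ± 0.18), and Ccne2, cyclin E2, at 99.4 and 35.5 CPM in S5KO, against 22.2 and 22.6 CPM in WT (1.59 ± 0.36). The lower ones were the mitotic kinases Aurka (-1.55 ± 0.42) and Aurkb (-1.38 ± 0.34), Ccnb2 (-1.45 ± 0.34), the mitotic factor Foxm1 (-1.30 ± 0.28) and Tk1 (-0.68 ± 0.21). Aurka was at 46.3 and 17.4 CPM in S5KO, against 112 and 74.1 CPM in WT. Without S5KO replicate 2, and without WT replicate 1, the list had 0 lower calls, and without S5KO replicate 1 it had 10. The lower calls were 12 with no filter on low counts, 11 with the replicate number as a block, 15 with that block within each culture and 10 with DESeq2. Ccne2 lost its call without S5KO replicate 1 (adjusted p = 0.26), WT replicate 1 (0.11) or WT replicate 2 (0.054). Mvd and Dhcr7 lost theirs without either S5KO library or WT replicate 1 (0.11 to 0.22), and Hsd17b7 without S5KO replicate 1 (0.43), WT replicate 1 (0.12) or WT replicate 2 (0.15).

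Genes of naive and follicular helper T cells were higher in 5 of 17 cases and lower in 1, beside 6.22% and 5.52% of all genes. Bcl6, the follicular helper factor and a repressor of T-bet programs, was at 17.4 and 22.3 CPM in S5KO, against 4.45 and 2.93 CPM in WT (2.43 ± 0.30, adjusted p = 0.00016). Its change was of the same order in the other cultures (2.67 to 3.80). S1pr1, which guides exit to blood, was at 210 and 238 CPM in S5KO, against 75.5 and 84.6 CPM in WT (1.48 ± 0.29). Ccr7, the lymph node homing receptor (1.15 ± 0.29), Bach2 (0.83 ± 0.22) and Satb1 (0.69 ± 0.17) were the others, and Il6ra, given above, the lower one. S1pr1 lost its call without WT replicate 1 (adjusted p = 0.074), Ccr7 without any one of the 4 libraries (0.068 to 0.12), Satb1 without S5KO replicate 1 or either WT library (0.10 to 0.13) and Bach2 without S5KO replicate 1 (0.14) or WT replicate 1 (0.34). Signature genes of other subsets stayed low: Il4 was at most 0.337 CPM, Il17a at most 0.81 CPM and Foxp3 at most 10.2 CPM in the 4 libraries. Of 12 Th17 genes tested 3 were higher and 2 lower, beside the same shares. Il6ra was among the lower, and Rora (1.58 ± 0.32), Il23r (2.18 ± 0.44) and Ccr6 (2.42 ± 0.48) were higher. Of these 3, the calls were lost without WT replicate 1 (0.074 to 0.082), and those of Rora and Ccr6 also without S5KO replicate 1 (0.074 and 0.052).

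Whether STAT5 loss acted differently in Th1 culture than elsewhere was tested directly. Its effect differed from that in Th0 for 756 genes (4.94%), 385 above and 371 below, and from the mean of the other 4 cultures for 795 genes (5.2%), 445 above (2.91%) and 350 below (2.29%). Of the 1796 genes called in Th1, 469 (26.1%) differed from Th0 and 538 (30.0%) from the other 4. Batf3, an AP-1 factor, shows the pattern. It was at 115 and 137 CPM in S5KO Th1 cells, against 172 and 200 CPM in WT Th1 cells (-0.56 ± 0.36, not called), and at 0.332 and 0.805 CPM in S5KO Th0 cells, against 49.6 and 52.1 CPM in WT Th0 cells. The difference between the cultures was 5.92 (adjusted p = 6.4e-05). Il10ra, the IL-10 receptor chain, was at 79.8 and 79.0 CPM in S5KO Th1 cells, against 60.2 and 51.4 CPM in WT Th1 cells (0.51 ± 0.27, not called), with a change of -4.08 in Th0. Stra6, a retinol transporter, was higher in Th1 (66.8 and 78.5 CPM in S5KO, against 13.6 and 15.5 CPM in WT; 2.32 ± 0.40), with a change of -2.78 in Th0. Sema3b (0.58 in Th1 and -5.78 in Th0) and Lama5 (-1.92 in Th1 and -6.84 in Th0) also differed, and the Th1 change of Lama5 lost its call without S5KO replicate 1 (adjusted p = 0.094). Leaving out 1 library gave 318 to 691 genes that differ from Th0 and 234 to 529 that differ from the other 4. The first count fell by more than 1.5 times without S5KO Th1 replicate 1 (351), WT Th1 replicate 1 (318), either S5KO Th0 library (503 and 437) or WT Th0 replicate 2 (370), and the second without any one of the 4 Th1 libraries (308, 529, 234 and 404).

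**Figure D5:**
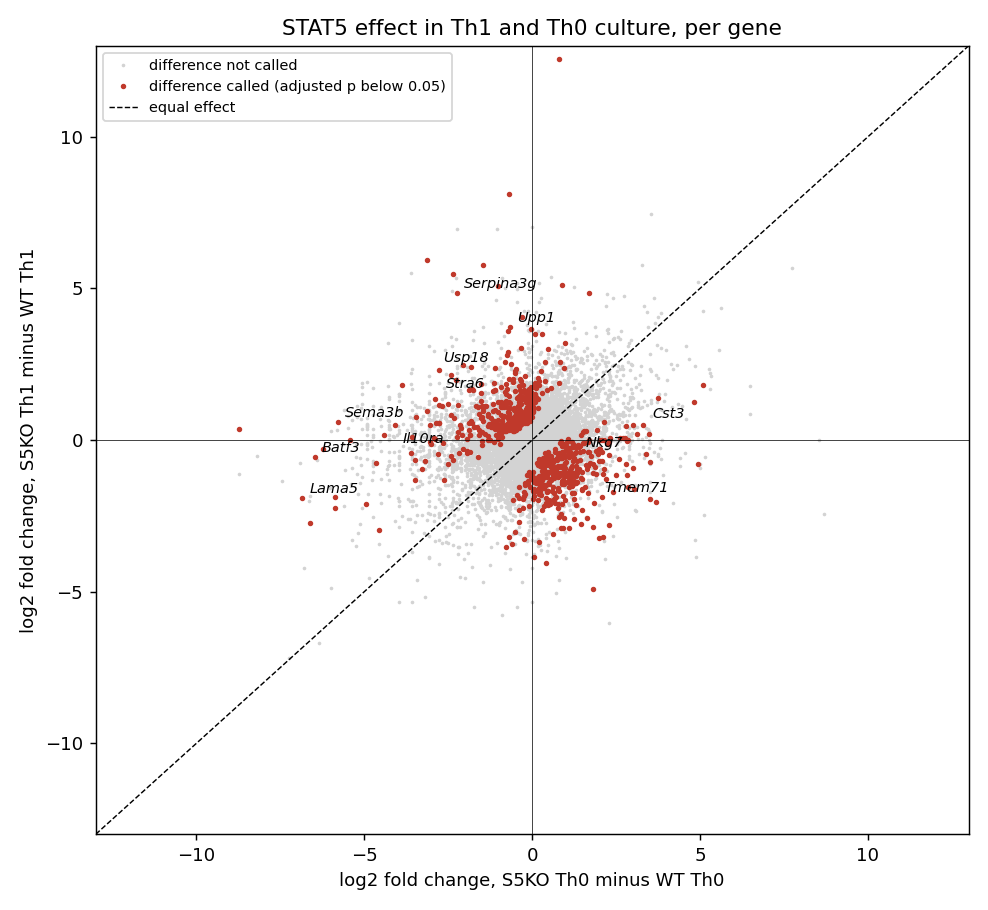
Log2 fold change of each gene, S5KO minus WT, in Th1 culture (vertical) against Th0 culture (horizontal), with the 756 genes whose effect differs between the cultures in red and the line of equal effect dashed. Labels name the 8 genes farthest above the line by the rule for named genes, among them Serpina3g (7.10) and Batf3 (5.92), and 3 below it.

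IL-2 itself was given to wild-type activated cells in another set, in which 3 libraries kept 18 h with human IL-2 after an overnight rest were compared with 3 rested libraries. Those libraries are not shared with the Th1 comparison. The IL-2 libraries come from 4 days of culture and the rested ones from 3, so that time and IL-2 cannot be told apart. IL-2 changed 9942 of 12262 genes tested (81.1%), 40.7% raised and 40.3% lowered. Of 814 genes lower in S5KO Th1 and tested in both, 343 (42.1%) were raised by IL-2, beside 40.9% of all genes tested in both, and they are 6.89% of the genes that IL-2 raised. Of 873 genes higher in S5KO Th1, 435 (49.8%) were lowered by IL-2, beside 40.2%, and they are 8.88% of the genes that IL-2 lowered. The share for lower genes was near that of all genes. Without S5KO replicate 1 it was 56.7%, and without S5KO replicate 2 34.2%. The share for higher genes was 43.9% without S5KO replicate 2 and 65.6%, 61.0% and 60.8% without the other 3 libraries. IL-2 raised Lta (log2 fold change 3.94), Socs2 (7.38) and Egln3 (4.14), which fell in S5KO Th1 cells, and also Serpina3g (4.62), which rose in them. Interferon-stimulated genes were lowered by IL-2 in 17 of 18 tested members and naive and follicular helper genes in 15 of 17, beside 40.3% of all genes. IL-2 raised 20 of 20 glycolysis genes, of which 6 were higher and 1 lower in S5KO Th1 cells. It also raised 27 of 29 ribosome biogenesis genes, of which 0 were called in S5KO Th1 cells. Of all genes, 40.7% were raised.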

How the data were processed

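RNA from mouse CD4+ T cells was poly(A)-selected and made into libraries with NEBNext Ultra, per the labels' protocols, a kit that does not mark strand, so that overlapping and antisense genes cannot be told apart. Both deposited tables hold raw counts for each gene. The submitters' processing notes name HTSeq, Bowtie2 and TopHat2, without versions, and mm9. For the 5 cultures, 27 rows with names turned into dates, at most 0.266% of a library's counts, were left out, and for IL-2, 250 symbols were given their hyphen back. The tests used edgeR 4.0.16 (R 4.3.3), with filterByExpr, TMM scaling, and a quasi-likelihood fit with 1 mean per group over 20 libraries in 10 groups (6 libraries for IL-2). Genes were called at a Benjamini-Hochberg adjusted p below 0.05. The common biological coefficient of variation was 0.240. Standard errors are the log2 fold change divided by the root of F. Scripts were tested on simulated data.

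The members and the 29 gene lists (382 genes, 3 absent from the table) were chosen with earlier results of these data known. The text names Stat5a, Stat5b, Tbx21, Ifng, Il2ra and Myc, the 15 largest called changes per direction among genes with a mean of at least 4 in log2 CPM and libraries that do not overlap (unnamed predicted transcripts left out), up to 6 called members of each list, all members of the 5 lists closest to Th1 and IL-2 signals, and the 8 largest differences per direction from other cultures. Other genes were named to complete a list's count or after their values were seen. Alternatives were RLE scaling, no filter, a robust prior, DESeq2 1.42.0, fewer libraries, replicate blocks and each library left out. Peak lists and other sets were not used here. Precision is limited by 2 libraries per group. Some genes are not reported here.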

Additional observations from a re-analysis of the deposited data

Results flagged for a closer look

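The genes below are listed because the effect of STAT5 loss (log2 fold change, S5KO minus WT) differed between Th1 culture and another culture by a test of that difference in the edgeR fit, each at an adjusted p below 0.05. No cause was tested for any of them. Set against Th0, the effect in Th1 lay above by 7.10 for Serpina3g, 6.37 for Sema3b, 5.92 for Batf3, 5.09 for Stra6, 4.92 for Lama5, 4.59 for Il10ra, 4.58 for Usp18, 4.37 for Upp1 and 1.75 for Il2ra. It differed from Th0 by -3.02 for Tmem71, -2.81 for Cst3, -2.71 for Ephx1, -2.51 for Nkg7, -2.42 for Ypel3, -2.42 for Srgap3 and -2.39 for Rgs10. Of these, Sema3b, Batf3, Il10ra and Il2ra were called in Th0 and not in Th1 culture, and Cst3, Nkg7, Ypel3 and Srgap3 were not called in Th1 either. Zfpm1, named next, was also not called in Th1.

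Set against the mean of the other 4 cultures, the effect in Th1 lay above by 5.03 for Serpina3g, 4.72 for Stra6, 4.49 for Batf3, 4.43 for Sema3b, 4.35 for Usp18, 4.19 for Isg15, 3.85 for Tgtp2, 3.82 for Iigp1, 2.49 for Ifng and 1.08 for Il2ra. It differed from that mean by -2.31 for Tmem71, -2.01 for Zfpm1, -1.92 for Rgs10, -1.90 for Ephx1, -1.89 for Cdc25b, -1.77 for Lactb, -1.77 for Tbc1d31 and -1.76 for Zak. Ifng was at most at 1.96 CPM in any library of the other cultures, so its difference rests on very low counts there. The Ifng difference from Th0 was not called in the edgeR fit (adjusted p = 0.51) or under any alternative. DESeq2 did not call the Ifng difference from that mean. Leaving out 1 of the Th1 libraries ended the call for Ifng (adjusted p up to 0.23) and Il2ra (up to 0.30) against that mean. It did so for Ypel3 (up to 0.094) and Srgap3 (up to 0.19) against Th0, and for Cdc25b (up to 0.090) and Zak (up to 0.062) against the mean.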

How the results depend on the processing

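Of 155 named genes tested, 106 were called, 50 of them under every alternative, 19 only under an alternative, and 0 called values changed direction. The 1796 genes changed by STAT5 loss in Th1 became 2816 with DESeq2, 871 with only the 4 Th1 libraries and 3240 with a replicate block within each culture, an alternative chosen after seeing the data. The 756 genes that differ from Th0 became 1617 and 2066 with DESeq2 and that block, and the 795 that differ from the other 4 cultures 1591 and 2031, and 1245 with the replicate block across cultures. That block gave 2342 genes in Th1 and 1134 against Th0. The labels do not say that a number marks a shared animal, litter or day, and a comparison within 1 culture has 2 pairs. The differences between replicate numbers correlated at 0.72 over genes for S5KO and WT Th1, and at 0.107 to 0.746 over the 45 pairs of groups. Of the genes called in Th1, 1794 were also called with the block and 1790 with the block within cultures. With 1 library left out the counts ran between 488 and 1299 in Th1, 318 and 691 against Th0, 234 and 529 against the other 4, and 9584 and 9901 for IL-2, where the lone library of a group is assumed to vary like the others. The share of higher calls in Th1, 53.0%, became 70.4% without S5KO replicate 2 and 39.5% without WT replicate 2. The share of lower genes that IL-2 raised ran between 34.2% and 56.7%, and that of higher genes that IL-2 lowered between 43.9% and 65.6%, with 42.4% by DESeq2 and 64.0% with only the 4 Th1 libraries. Distinct list members called were 94, between 44 and 80 with a library left out and 165 with the block within cultures, and named genes called ran between 56 and 82. Glycolysis calls were 6 higher and 1 lower with TMM, and 5 and 2 with RLE scaling. They were 9 and 2 with DESeq2, and 1 and 1 with only the 4 Th1 libraries. The remaining alternatives left these counts within 1.5 times. At 2 libraries per group, small changes of low genes cannot be seen, and larger ones can be missed too. In the simulated data 200 of 15299 genes were changed, and 21.5% of them were called at 2-fold and 66.5% at 4-fold. The Th1 comparison itself called 11.7% of genes, and the simulation drew no difference between replicate numbers. Its shares thus need not hold for these libraries. A gene not called here may still have changed.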

Other observations

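Of 15 BCL2 family members tested, 3 were higher and 1 lower in S5KO Th1 cells, beside 6.22% and 5.52% of all genes tested. Bcl2l11, which encodes the death promoter BIM, was at 207 and 192 CPM in S5KO, against 44.9 and 56.0 CPM in WT (log2 fold change 1.98 ± 0.46, adjusted p = 0.012), and Pmaip1, which encodes NOXA, at 87.8 and 51.5 CPM in S5KO, against 26.1 and 20.9 CPM in WT (1.57 ± 0.30). Bak1 was higher (0.73 ± 0.19) and Bik, at under 5 CPM, lower (-1.33 ± 0.32). Bcl2, the survival gene that IL-2 raises, was not called (344 and 281 CPM in S5KO, against 374 and 437 CPM in WT; -0.38 ± 0.18). With S5KO replicate 1 left out 0 members were called, and with WT replicate 1 left out 2.

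Among surface receptors, Slamf1 was lower (78.6 and 65.6 CPM in S5KO, against 189 and 203 CPM in WT; -1.44 ± 0.18), as was Ccr4, a chemokine receptor of Th2 and regulatory cells (18.0 and 20.3 CPM in S5KO, against 37.2 and 49.4 CPM in WT; -1.18 ± 0.17). The activation markers Cd44 (183 and 151 CPM in S5KO, against 61.8 and 71.4 CPM in WT; 1.33 ± 0.22) and Cd69 (79.2 and 81.6 CPM in S5KO, against 40.0 and 38.1 CPM in WT; 1.04 ± 0.23) were higher. Max, the partner of MYC, was at 251 and 210 CPM in S5KO, against 99.7 and 61.4 CPM in WT (1.52 ± 0.20, adjusted p = 0.00028), while Myc, at 264 and 256 CPM in S5KO and 218 and 173 CPM in WT, was not called (0.41 ± 0.30). Cd69 lost its call without S5KO replicate 1 or either WT library (adjusted p = 0.053 to 0.075). Of the lists not counted so far, costimulatory and coinhibitory receptors had 2 of 18 higher and 2 lower, cytokines 1 of 14 and 1, granule genes 1 of 5 and 1, the MYC network 1 of 11 and 1, Th2 genes 0 of 12 and 1, Treg genes 0 of 11 and 2, and serine and one-carbon metabolism 0 of 12 and 2, all beside 6.22% of all genes higher and 5.52% lower. Of 2 tested RNA quality genes 0 were called (0 at an unadjusted p below 0.05 with edgeR, 0 with DESeq2).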
